A study of Mus musculus with 2 samples.

Results

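The genes described here are 35 members of families of cell-surface proteins that carry leucine-rich repeats outside the cell and organise synapses or guide neurites. They were taken by gene symbol from the LRRTM, SLITRK, FLRT, LRRN, NGL, SALM, ELFN, LINGO and AMIGO families, with Islr2 added, and all 35 were found among the 32813 symbols of the deposited expression table. All samples belong to one group. Type 5 bipolar cells of the mouse line Htr3a-GFP, in which the Htr3a promoter drives a green fluorescent protein, were collected by flow sorting after the retina had been dissociated. The 2 libraries of total RNA are biological replicates per the design text. Age, sex, further alleles and any pooling of animals are not stated in the labels, and no other cell population was measured. Each value is therefore a level in the sorted cells and not an enrichment over other cells. Levels are in TPM, a transcript share scaled by gene length, so that different genes can be compared. Read depth cannot be recovered from TPM and is unknown, so values carry no counting interval.

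Leucine-rich repeat adhesion proteins sit in the plasma membrane of neurons and bind partners across the synaptic cleft. LRRTM proteins bind neurexins, SLITRK and several SALM proteins bind receptor tyrosine phosphatases, FLRT proteins bind latrophilins and UNC5 receptors, and ELFN proteins bind metabotropic glutamate receptors. Related paralogs often mark different neuron types, and type 5 bipolar cells, which carry cone signals to the ON layers of the inner retina, are themselves divided into subtypes, of which 5D is marked by Lrrtm1 and 5C by Slitrk5.

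Amigo2, Lrrc4c, Lrrtm1 and Flrt3 were the highest of the 35, and together made up 65.6% of the summed TPM of the members in replicate 1 and 56.7% in replicate 2. The members summed to 816 TPM in replicate 1 and 898 TPM in replicate 2, or 0.0816% and 0.0898% of each library. The regions just upstream of these 4 leading genes are shown to let their base composition be compared. Each run is the 250 bases before the RefSeq transcription start on the build GRCm38.p6, written 5′ to 3′ on the strand of the gene, and capitals mark the E-box CAGATG, a motif of NEUROD-type factors, or its reverse complement CATCTG. The windows are chr15:97247288-97247537 on the minus strand for Amigo2, chr2:96317919-96318168 on the plus strand for Lrrc4c, chr6:77242227-77242476 on the plus strand for Lrrtm1 and chr2:140671477-140671726 on the minus strand for Flrt3.
Amigo2: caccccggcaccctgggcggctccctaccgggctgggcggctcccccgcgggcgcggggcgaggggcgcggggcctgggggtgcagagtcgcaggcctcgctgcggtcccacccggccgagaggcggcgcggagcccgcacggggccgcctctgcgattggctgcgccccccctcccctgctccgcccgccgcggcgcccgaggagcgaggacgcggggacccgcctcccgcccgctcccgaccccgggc
Lrrc4c: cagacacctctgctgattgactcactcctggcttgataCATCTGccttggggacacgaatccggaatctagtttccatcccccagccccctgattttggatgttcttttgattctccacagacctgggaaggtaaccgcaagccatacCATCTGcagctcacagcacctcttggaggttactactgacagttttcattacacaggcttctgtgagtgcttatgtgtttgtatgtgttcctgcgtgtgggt
Lrrtm1: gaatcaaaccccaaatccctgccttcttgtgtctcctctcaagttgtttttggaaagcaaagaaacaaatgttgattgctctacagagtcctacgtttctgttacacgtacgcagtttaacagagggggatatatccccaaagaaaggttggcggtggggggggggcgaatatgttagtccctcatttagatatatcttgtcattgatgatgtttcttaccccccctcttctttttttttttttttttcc
Flrt3: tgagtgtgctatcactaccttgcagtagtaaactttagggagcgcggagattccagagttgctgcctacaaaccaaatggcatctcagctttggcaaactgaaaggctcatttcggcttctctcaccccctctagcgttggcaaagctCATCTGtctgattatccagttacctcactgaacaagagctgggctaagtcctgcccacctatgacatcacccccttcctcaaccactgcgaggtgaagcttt

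The 4 upstream windows differed widely. That of Amigo2 was 84.0% G or C with 38 CG pairs, against 49.6% and 4 pairs for Lrrc4c, 42.0% and 5 pairs for Lrrtm1 and 50.0% and 5 pairs for Flrt3. Over all 32851 windows of this length the medians were 52.4% and 6 pairs. The table of starts held 36 windows for 29 of the 35 members. CAGATG, searched on both strands, was in 5 of the 36 windows (13.9%) and in 14.4% of all windows. TAATTA, a homeobox motif that reads the same on both strands, was in 2 (5.56%) against 4.84%. TAATCC, the motif of OTX2 and CRX, was in 0 of 36 against 6.25% on both strands. These are matches of letters in a window and say nothing about binding.

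Counted by level, 25 of the 35 members had at least 1 TPM in both libraries. Of all symbols 41.1% did, and of the 20317 symbols that are protein-coding in the annotation GENCODE M21 53.1%. At least 10 TPM in both was reached by 15 members, against 25.1% of all symbols and 34.6% of protein-coding ones. A second reading tested each gene for a level above a line with limma on log2(TPM + 1), one-sided, with p-values adjusted by Benjamini-Hochberg across the 19968 symbols above 0 in either library. By it 17 of the 34 members above 0 passed the line of 1 TPM, against 55.5% of all tested symbols and 61.5% of the protein-coding ones. The line of 10 TPM was passed by 10 members, against 32.4% and 37.8%. The share of members lay above the background without the test and under it with the test. These backgrounds are unlike, however, since only the one without the test includes symbols at 0 in both libraries. Of the 19968 symbols above 0, 13493 had at least 1 TPM in both libraries, as did 10798 of the 14819 protein-coding ones. At 10 TPM these counts were 8246 and 7032. On that base the 25 and 15 of 34 members lie near the protein-coding shares. The change of side is therefore not ascribed to the test, and neither count is read as setting the members apart. The test takes each gene's variance from genes of like level, so its own disagreement between libraries does not enter. In simulated data it called 14 of 50 genes set at 4 TPM and 50 of 50 at 16 TPM, so failing the test does not place a gene under 1 TPM.

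**Figure D1:**
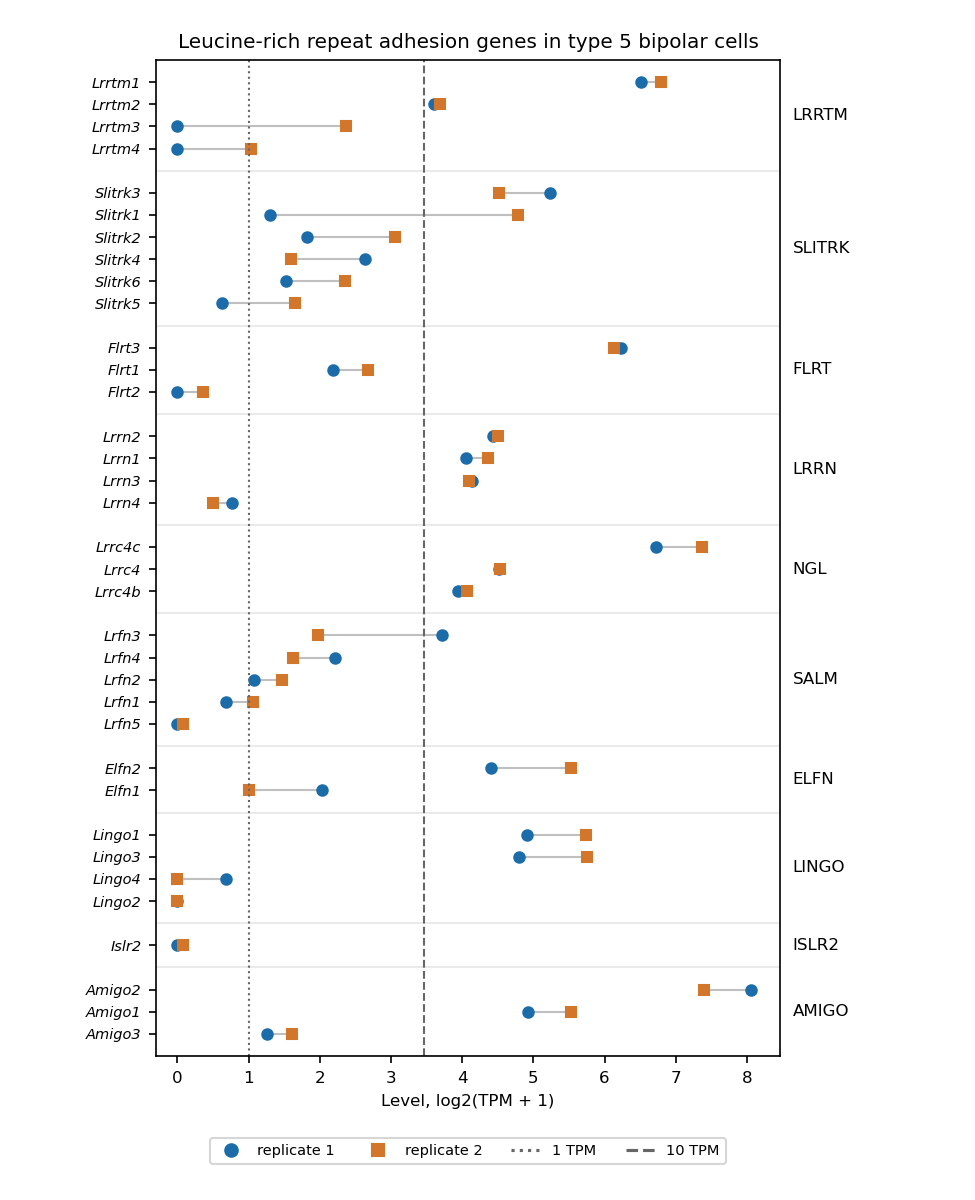
Level of each of the 35 genes on the log2(TPM + 1) scale, by family, with a circle for replicate 1, a square for replicate 2 and a line joining them. Dotted and dashed lines mark 1 and 10 TPM, and a single gene leads the LRRTM and FLRT families in both libraries.

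The LRRTM family, postsynaptic partners of neurexins, was carried by Lrrtm1. Lrrtm1 had 90.5 TPM in replicate 1 and 110 in replicate 2 (100.2 ± 13.7, SD, n = 2). It supplied 89.0% of the LRRTM total in replicate 1 and 86.5% in replicate 2. Lrrtm2 had 11.2 and 11.9 TPM. Lrrtm3 was listed at 0 in replicate 1, with 4.18 TPM found in replicate 2, and Lrrtm4 at 0 and 1.04 TPM. A listed 0 can be a failed estimate, so it is not read as absence. LRRTM4 is known from GABA synapses on the axon terminals of rod bipolar cells. Lrrtm1 was thus the highest LRRTM gene in each library, with no overlap with its paralogs, and it and Lrrtm2 passed the line of 1 TPM.

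The FLRT family was also led by a single gene. Flrt3, an adhesion protein that also takes part in axon guidance, had 73.9 TPM in replicate 1 and 69.1 in replicate 2 (71.5 ± 3.41, SD, n = 2), which was 95.4% and 92.4% of the FLRT total. Flrt1 had 3.57 and 5.38 TPM. Flrt2 was listed at 0 in replicate 1, with 0.28 TPM found in replicate 2. Flrt3 alone of the 3 passed the line of 1 TPM, and its libraries stood well apart from those of Flrt1.

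The AMIGO genes, which encode adhesion proteins with an immunoglobulin domain beside the repeats, had the highest family total. Amigo2, which is known to limit the size of rod bipolar and starburst amacrine dendrites, had 266 TPM in replicate 1 and 167 in replicate 2 (216 ± 69.7, SD, n = 2). It ranked 598 of all symbols by mean TPM and was the highest member in each library. Amigo1, an auxiliary subunit of Kv2 potassium channels, had 29.4 and 45.2 TPM, and Amigo3 had 1.40 and 2.05 TPM. Amigo2 and Amigo1 passed the line of 10 TPM, and Amigo3 did not pass that of 1 TPM.

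All 3 NGL genes were expressed. Lrrc4c encodes NGL-1, a ligand of netrin-G1, and had 105 TPM in replicate 1 and 164 in replicate 2 (134 ± 41.7, SD, n = 2). Lrrc4, which encodes the netrin-G2 ligand NGL-2, had 21.8 and 22.1 TPM. Lrrc4b, which encodes NGL-3, a ligand of LAR-type phosphatases, had 14.3 and 15.7 TPM. The order of the 3 genes was the same in both libraries, and all of them passed the line of 1 TPM. Lrrc4c made up 74.3% and 81.2% of the NGL total.

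Expression of the LRRN genes, neuronal leucine-rich repeat proteins, was spread over 3 of the 4. Lrrn2 had 20.7 and 21.6 TPM in replicates 1 and 2, Lrrn1 15.6 and 19.6, and Lrrn3 16.6 and 16.1. Lrrn4 had 0.71 and 0.42 TPM. The highest, Lrrn2, made up only 38.6% and 37.4% of the LRRN total, and the libraries of Lrrn1 and Lrrn3 overlapped. Lrrn1, Lrrn2 and Lrrn3 had at least 10 TPM in both libraries and passed the line of 1 TPM. At the line of 10 TPM Lrrn2 passed only under other settings of the test.

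Of the LINGO genes, 2 were expressed at nearly the same level. Lingo1, a partner of the Nogo receptor in limiting axon growth, had 29.2 TPM in replicate 1 and 52.3 in replicate 2 (40.7 ± 16.3, SD, n = 2). Lingo3 had 26.8 and 52.7 TPM (39.7 ± 18.4, SD, n = 2). Their libraries overlapped, so no order between them can be given, and both passed the line of 10 TPM. Lingo4 had 0.61 TPM in replicate 1 but was at 0 in replicate 2. Lingo2 was listed at 0 in both libraries, the only member so listed. Islr2, also called Linx, a membrane protein of growing axons, was listed at 0 in replicate 1, with 0.06 TPM found in replicate 2.

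Elfn2 exceeded Elfn1 in each library. Elfn2 had 20.3 TPM in replicate 1 and 45.1 in replicate 2 (32.7 ± 17.6, SD, n = 2), and Elfn1 had 3.07 and 1.01 TPM. Both proteins are known from photoreceptors, where ELFN1 of rods binds mGluR6 of ON bipolar cells and ELFN2 is found in cones. The library with more Elfn2 held less of the cone markers. The 9 cone genes summed to 205 TPM in replicate 1 and 54.2 in replicate 2, and 8 of the 9 were lower in replicate 2. Among them Gnat2 had 86.0 and 23.3 TPM, and Pde6c was listed at 0 in replicate 2. The 12 rod genes summed to 1617 and 1700 TPM, with none at 0. Gngt1 and Rom1 were the highest, and 10 of the 12 were higher in replicate 2, where Elfn1 was lower. The part of photoreceptor RNA in the level of either gene was not tested.

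The SLITRK family, ligands of the phosphatases PTPδ and PTPσ, held the member with the widest gap between the libraries. Slitrk3, an organiser of inhibitory synapses, had 36.6 TPM in replicate 1 and 21.8 in replicate 2 (29.2 ± 10.4, SD, n = 2) and was the only one of the 6 with at least 10 TPM in both. Slitrk1 had 1.46 TPM in replicate 1 and 26.4 in replicate 2. Slitrk1 was therefore the lower of the pair in replicate 1 and the higher in replicate 2. Slitrk2 had 2.52 and 7.32 TPM, Slitrk4 had 5.22 and 2.01, and Slitrk6, which is known for the innervation of retina and inner ear, had 1.88 and 4.09. Slitrk5, the marker of subtype 5C, had 0.55 and 2.15 TPM. Slitrk3 and Slitrk1 passed the line of 1 TPM, the latter on a variance that ignores the gap between its libraries.

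The SALM genes, which encode adhesion proteins of excitatory and inhibitory synapses, had the lowest total of the families with more than 1 gene. Lrfn3, which encodes SALM4, had 12.1 TPM in replicate 1 and 2.92 in replicate 2. Lrfn4 (SALM3) had 3.65 and 2.09 TPM, Lrfn2 (SALM1) 1.11 and 1.76, and Lrfn1 (SALM2) 0.61 and 1.08. Lrfn5 (SALM5) was listed at 0 in replicate 1, with 0.06 TPM found in replicate 2. None of the 5 had at least 10 TPM in both libraries, and Lrfn3 alone passed the line of 1 TPM. The SALM total was 17.5 TPM in replicate 1 and 7.91 in replicate 2.

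**Figure D2:**
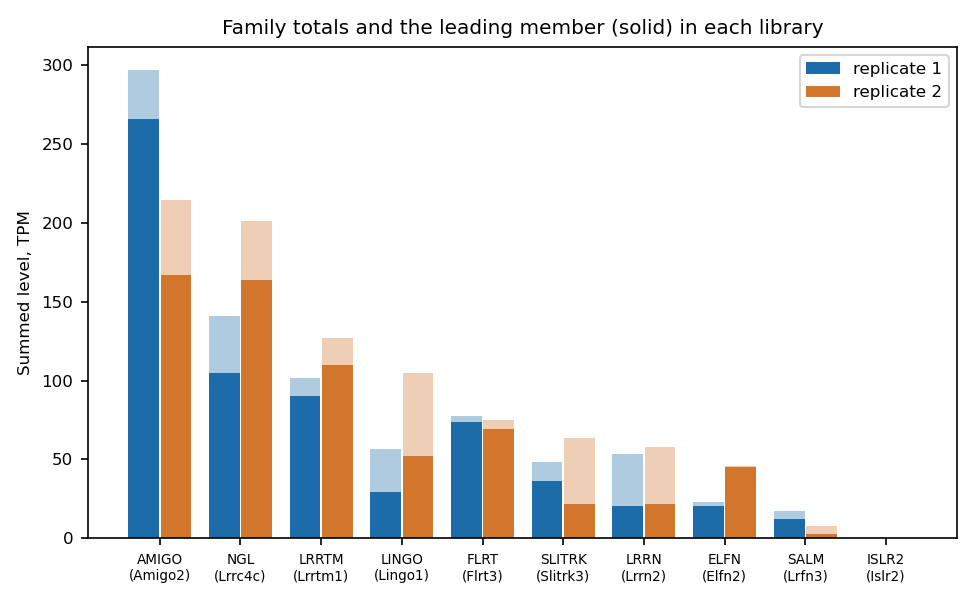
Summed TPM of each family in replicate 1 (left bar) and replicate 2 (right bar), the solid part being the gene named under the bar, which has the highest mean. Amigo2, Lrrc4c, Lrrtm1, Flrt3 and Elfn2 fill most of their bars in both libraries, whereas LRRN and LINGO are shared among members.

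Placed in order of mean TPM, the members formed 34 neighbouring pairs, and in 28 of these the 2 libraries of the pair overlapped. The 6 pairs without overlap were Amigo2 over Lrrc4c, Lrrtm1 over Flrt3, Flrt3 over Lingo1, Lrrc4 over Lrrn2, Lrrn2 over Lrrn1, and Lrrn3 over Lrrc4b. With 2 libraries this is a description and no test. Lrrc4c and Lrrtm1, neighbours near the top of the order, overlapped.

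Between the libraries, 14 of the 16 members with a mean of at least 10 TPM lay within 2-fold on the log2(TPM + 1) scale, against 75.2% of all 9864 such symbols. Within 1.5-fold lay 8 of the 16, against 51.5%. The 2 beyond 2-fold were Slitrk1 and Elfn2, both higher in replicate 2, by 3.48 and 1.12 log2 units. Of the 27 members with a mean of at least 1 TPM, 5 were higher in replicate 2 by over 2-fold, against 13.7% of such symbols, and 3 were lower, against 21.7%. The median difference over the 34 members above 0 was 0.30, and over all tested symbols -0.20. Of the 34, 24 were higher in replicate 2, where 41.4% of all tested symbols were. A pair of libraries from the same group allows no test of these differences.

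**Figure D3:**
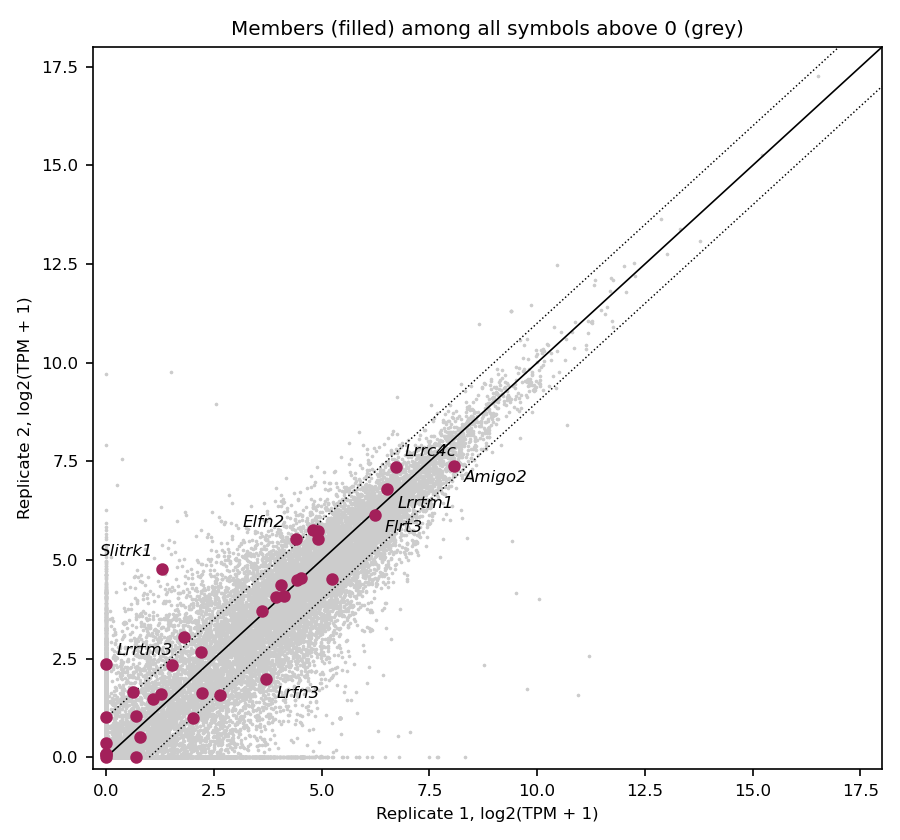
Level in replicate 2 against replicate 1, both as log2(TPM + 1), for all symbols above 0 (grey) and the 35 members (filled), with the line of equality and dotted lines at 2-fold. Slitrk1 lies furthest above the line of equality among the members and Lrfn3 furthest under it.

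Markers of other cells also differed between the libraries. The 10 amacrine genes summed to 67.0 TPM in replicate 1 and 140 in replicate 2, and 7 were higher in replicate 2. Of these genes Pax6 had 22.3 and 46.5 TPM and Gad1, chosen after its values were seen, 0.06 and 10.4 TPM. Slc6a9 went the other way, with 36.6 and 3.12 TPM, and there was no value above 0 for Chat or Calb2. The 10 ganglion cell genes summed to 32.7 and 75.3 TPM, mostly Thy1, with Pou4f2, Nefm, Sncg and Isl2 at 0 in both libraries. The 9 OFF bipolar genes summed to 6.13 and 26.7 TPM, with Neto1, Syt2 and Lhx3 at 0 in replicate 1, and the 5 rod bipolar genes to 42.6 and 69.0 TPM. The 10 Muller glia genes summed to 690 and 620 TPM, and to 192 and 408 without Car2, with 8 of the 10 higher in replicate 2, among them Vim at 0.20 and 119. The 6 microglia genes summed to 3.41 and 15.8 TPM, in replicate 2 mostly Aif1, which was at 0 in replicate 1, with C1qa at 0 in both. Of the 6, 3 were higher in replicate 2 and 2 were lower, Cx3cr1 at 2.01 and 1.34 TPM and P2ry12 at 1.06 and 0.43. The 5 horizontal cell genes summed to 705 and 479 TPM, mostly Prox1 at 702 and 468. Of the 5, 2 were higher in replicate 2, among them Calb1 at 0.51 and 9.28. The 6 endothelial and pericyte genes summed to 2.32 and 3.23 TPM, with 2 higher and 1 lower in replicate 2. Cldn5, Cdh5 and Pdgfrb were at 0 in both. The 6 members higher in replicate 2 by over 2-fold on the log2(TPM + 1) scale were Slitrk1, Slitrk2, Slitrk5, Lrrtm3, Lrrtm4 and Elfn2. Lrfn3, Slitrk4 and Elfn1 were lower there by over 2-fold. With 2 libraries, a member picked for being higher in replicate 2 falls in the same library as any marker sum higher there. Such a match is fixed by the choice and says nothing about which cells the RNA came from. The part of other cells in the levels of the members was not tested. In a bulk sample fewer cells of a type and less RNA per cell cannot be told apart. The 9 pan-bipolar genes summed to 7364 and 6796 TPM, and the reporter's gene Htr3a had 90.9 and 88.8 TPM. The 7 type 5 genes, among them Htr3a and the members Lrrtm1 and Slitrk5, summed to 680 and 759 TPM, with 4 higher in replicate 2. Kcng4 had 229 and 326 TPM, Sox6 136 and 115, and Chrm2 0.08 and 1.15. The levels of Lrrtm1 and Slitrk5 in bulk RNA do not give the share of a subtype.

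The known binding partners were taken from lists of textbook ligands and receptors, 34 genes in all, of which 20 passed the line of 1 TPM by limma, against 55.5% of all tested symbols and 61.5% of the protein-coding ones, so the count lies near the background. At least 1 TPM in both libraries was reached by 24, against 41.1% of all symbols and 53.1% of the protein-coding ones. Both shares include symbols at 0 in both libraries. Of the 14819 protein-coding symbols above 0, 10798 reached it, so this count too lies near the background. Partners of a family need not lie on the same cell, so these levels show only what the sorted cells themselves held. Of the neurexins, which bind LRRTM proteins, Nrxn3 had 939 TPM in replicate 1 and 687 in replicate 2, and Nrxn2 had 38.4 and 45.5. Both passed the line of 10 TPM. Of the phosphatases that bind SLITRK proteins, Ptprd had 469 and 435 TPM, Ptprs 53.7 and 89.4, and Ptprf 8.83 and 2.62, the last not passing the line of 1 TPM. Nrxn3 exceeded Nrxn2, and Ptprd exceeded Ptprs and Ptprf, in each library.

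The FLRT network of latrophilins, teneurins and UNC5 receptors had 8 of 11 genes past the line of 1 TPM by limma, and 9 with at least 1 TPM in both libraries. The latrophilin Adgrl2 (Lphn2 in the deposited table) had 314 TPM in replicate 1 and 323 in replicate 2, Adgrl3 (Lphn3) 261 and 249, Tenm4 152 and 179, and Adgrl1 (Lphn1) 140 and 123. The lowest were Unc5c, with 1.01 and 1.28 TPM, and Unc5d, listed at 0 in replicate 1, with 0.84 TPM found in replicate 2. Of the netrin-Gs, Ntng2, the partner of NGL-2, had 24.5 and 54.4 TPM and Ntng1, the partner of NGL-1, 1.80 and 9.15. The netrin-G gene of the higher level was thus the partner of Lrrc4, the NGL gene under Lrrc4c.

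Among group III metabotropic receptors, the partners of ELFN proteins, Grm6 had 538 TPM in replicate 1 and 914 in replicate 2 and was the 1 of 4 to pass the line of 1 TPM by limma, though 2 had at least 1 TPM in both libraries. Grm7 had 1.55 and 3.18 TPM, Grm8 was listed at 0 and 1.30, and Grm4 had 0.15 and 0.05. Of the genes that act with LINGO1, Ngfr had 171 and 128 TPM, Rtn4rl1 88.7 and 68.9, and Rtn4rl2 14.5 and 27.4. The Nogo receptor gene Rtn4r itself had 0.69 and 5.97 TPM and Tnfrsf19 was listed at 0 in replicate 1, with 0.17 TPM found in replicate 2. Those 3 of the 5 genes, Ngfr, Rtn4rl1 and Rtn4rl2, passed the line of 1 TPM, and Rtn4r, whose protein is the one LINGO1 is best known to bind, did not. Of 6 glypicans, among them partners of LRRTM3 and LRRTM4, Gpc6 at 41.7 and 12.2 TPM and Gpc1 at 5.06 and 9.15 passed it. Gpc4 had 1.51 and 0.77 TPM, Gpc2 0.35 and 1.71, and Gpc3 was listed at 0 in replicate 1, with 1.09 TPM found in replicate 2. Gpc5 was listed at 0 in both libraries and so was not tested.

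**Figure D4:**
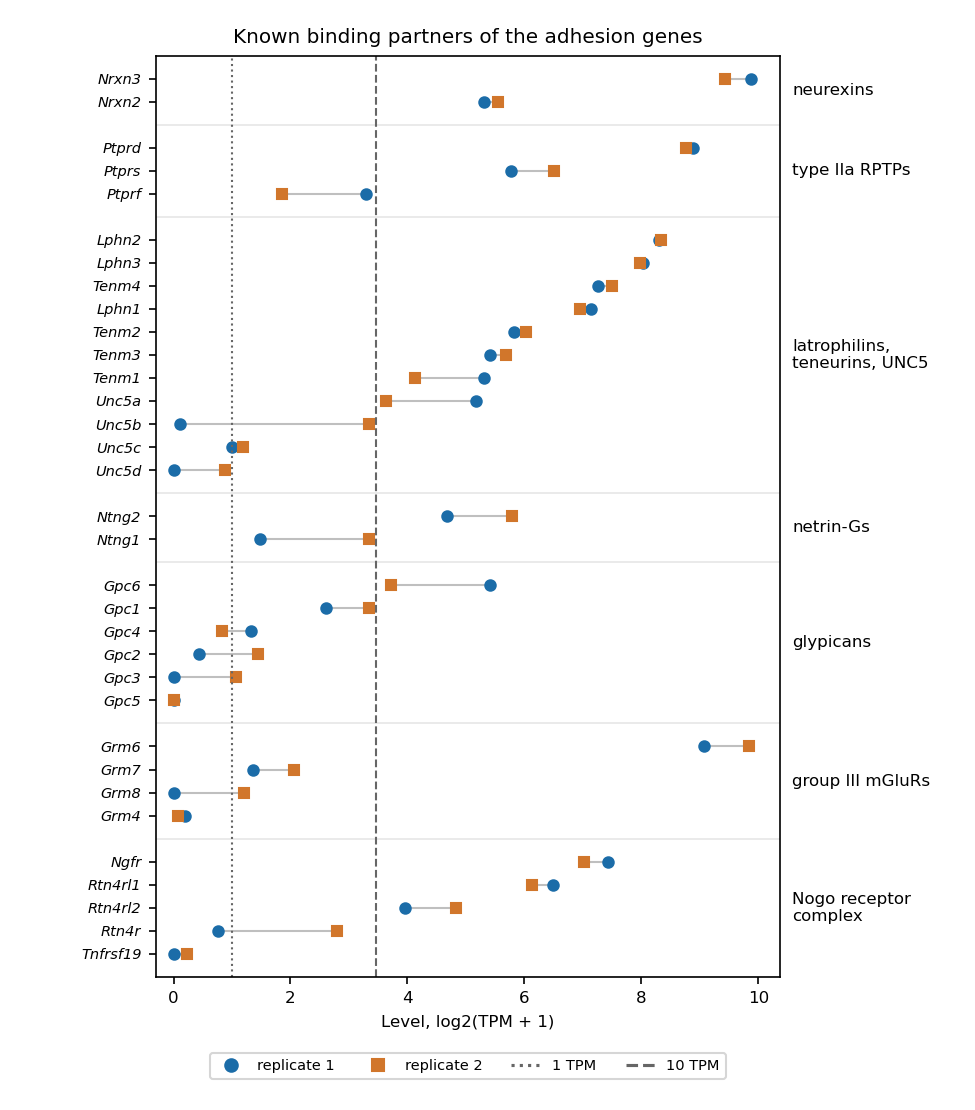
Level of the binding partner genes reported here on the log2(TPM + 1) scale, by list, drawn as for the members and with the symbols of the deposited table. Nrxn3, Ptprd and Grm6 stand apart from the other genes drawn for their lists in both libraries.

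Many of the members have a gene structure that the choice by symbol did not use. In GENCODE M21, on the assembly GRCm38 (mm10), the longest coding sequence lay within 1 exon for 22 of the 35 genes (62.9%), against 16.3% of 21924 protein-coding genes, and 10.2% of the 18860 in the table that are not chemoreceptor genes by name. Coding sequences ran from 1476 to 2940 bases. Amigo2 (minus strand) spans chr15:97244125-97247287, Lrrc4c (plus strand) chr2:96318169-97631666, and Flrt3 (minus strand) chr2:140650914-140671469. All 3 hold their coding sequence in 1 exon, as Lrrtm1 does.

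Some members also lie inside another gene. Of the 35 members, 10 (28.6%) lie wholly within a protein-coding gene of the opposite strand, against 2.46% of protein-coding genes. Of the 10, 9 overlap no exon of that host gene, as do 373 of all 539 protein-coding genes so placed. Paralogs shared a kind of host, so the 10 are not independent. Lrrtm1, Lrrtm2 and Lrrtm3 lie in the alpha-catenin genes Ctnna2, Ctnna1 and Ctnna3, and Flrt1 and Flrt3 in Macrod1 and Macrod2. Lrrc4 lies in Snd1, Lrrn3 in Immp2l, Lrfn1 in Samd4b, Lrfn4 in Pcx and Amigo3 in Rnf123. The labels do not say whether strand was used in counting, so reads of a host and of the gene inside it may not be told apart.

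The levels of hosts and inner genes did not follow a single order. Ctnna2 had 70.0 TPM in replicate 1 and 65.4 in replicate 2, under Lrrtm1 in each library. Ctnna1 had 14.7 and 25.0 TPM, above Lrrtm2, with which it shares 95 exon bases. Ctnna3 had 0.46 TPM in replicate 1 but was at 0 in replicate 2, where Lrrtm3 had its only value. Macrod2 had 77.7 and 26.9 TPM, against 73.9 and 69.1 for Flrt3, and Macrod1 had 12.3 and 11.5. Rnf123 had 68.4 and 145 TPM around Amigo3, and Samd4b 20.4 and 29.9 around Lrfn1, both far above the inner gene. Snd1 had 41.4 and 38.9 TPM, Immp2l 8.24 and 1.05, and Pcx 0.64 and 1.2. The part of host reads in the level of an inner gene was not tested.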

How the data were processed

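The 2 libraries were made, per the labels' protocols, from cells sorted out of dissociated retina into RNAlater, with a NuGEN Ovation V2 amplification kit. The authors deposited 1 table of TPM with a column per library. Per the submitters' processing notes the tools were RSEM 1.2.28 and TopHat2 2.0.10 and the build mm10, with no roles. The labels state no annotation, filter or strand setting. The header of the replicate 1 column misspells Htr3a, so its replicate number was used to assign it.

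TPM was used as deposited, on the scale log2(TPM + 1), pseudocount 1, which understates differences of low genes. Tests left out symbols with no value above 0. Levels above 1 and 10 TPM were tested with limma 3.58.1 in R 4.3.3 (intercept only, variance trend, threshold 0.05), checked on simulated data. limma estimated an infinite prior, so single p-values are not printed. Zeros can be failed estimates and are given as listed, with no SD. Library totals include mitochondrial RNA (17.3% and 24.6% of TPM). Python 3.11.15 with pandas 2.3.3 and matplotlib 3.10.9 was used.

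The members and lists were chosen with earlier results of these data known. Named were every member, the highest 4 and lowest 2 of each partner list and of a list of other leucine-rich repeat genes, host genes, Htr3a and the 2 highest of each cell type list; others were chosen after their values were seen. A few genes named by this rule are left out of the text. The alternatives were other pseudocounts, a filter, other limma priors, single libraries and rescaling without mitochondrial RNA. Promoter sequences are from RefSeq on GRCm38.p6.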

Additional observations from a re-analysis of the deposited data

How the results depend on the processing

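The count of members above 1 TPM in limma was 17 and lay between 17 and 20 under pseudocounts of 0.1 and 0.5, a filter at a mean of 1 TPM, no variance trend, a robust prior and rescaling without the mitochondrial genome. All 17 genes passed under each of these, and Flrt1, Slitrk2 and Slitrk4 were the ones added. The count above 10 TPM was 10 and lay between 9 and 11, with Lrrc4 lost without the trend or with a robust prior and Lrrn2 gained under 3 others. Partners above 1 TPM numbered 20 to 22. With a single library no limma fit is possible, so the tests were not run without a replicate. Without a test, 25 members had at least 1 TPM in replicate 1 and 29 in replicate 2, against 25 in both, and 16 in each library had at least 10 TPM, against 15 in both. The median level of the members, 2.44 on the log2(TPM + 1) scale, was 2.22 in replicate 1 and 2.67 in replicate 2. The median difference between the libraries ranged from 0.30 to 0.55. No paired analysis was possible because there is a single group. Depth is unknown, so values near 0 carry no detection limit.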

Other observations

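Among 22 other leucine-rich repeat genes of the membrane or extracellular space, 4 were at 0 in both libraries and so were not tested. The line of 1 TPM in limma was passed by 10, against 55.5% of all tested symbols and 61.5% of the protein-coding ones. That of 10 TPM was passed by 8, against 32.4% and 37.8%. The median level of the 22, as log2(TPM + 1), was 2.22, and that of the members 2.44. It was 3.22 over all tested symbols, 3.70 over the tested protein-coding ones and 2.07 over all protein-coding symbols, zeros included. Lrtm1 had 596 TPM in replicate 1 and 499 in replicate 2, above Amigo2 in each library. Nyx, which encodes nyctalopin of the ON bipolar cascade, had 162 and 139 TPM, Lrit1, a photoreceptor synaptic protein, had 126 and 132, and Lrit2 had 85.4 and 78.2. Lrig3, Islr, Lgi1 and Lgi4 were listed at 0 in both libraries.

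Lrtm1 and its paralog Lrtm2 also lie inside protein-coding genes of the opposite strand without overlap of exons, a feature looked for after their values were seen. The host of Lrtm1 is Cacna2d3, a calcium channel subunit gene with 17.6 TPM in replicate 1 and 19.0 in replicate 2, far under Lrtm1. The host of Lrtm2 is Cacna2d4, with 286 and 181 TPM, above Lrtm2, which had 39.9 and 115. The part of host reads in either level was not tested.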
